A study of Mus musculus with 46 samples.

Results

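The acetylation of histone H3 at lysine 27 (H3K27ac) was compared between microglia that were dividing to refill the brain after depletion and microglia of untreated adult mice. The comparison rests on 4 deposited region lists, 2 of repopulating Ki67-positive microglia and 2 of adult microglia, which were merged into 1 union. A union region is a stretch covered by a region of at least 1 of the 4 lists. The union held 34295 regions, of 40724 in a union of all 12 H3K27ac lists of the series. Per the labels, both groups were sorted from male C57BL/6 mice of wild-type genotype, and Ki67 was stained by antibody in the fixed cells. The repopulating mice ate PLX5622 from day 70 for 17 days, recovered for 3 days and were 90 days old, and their Ki67-positive cells were taken. The list header of repopulating replicate 1 gives 80 days instead of 90. The adult mice had no treatment, were 60 and 65 days old, and their cells are labelled Ki67-negative, so treatment, age and Ki67 status differ together and cannot be told apart. The names of the tag directories in the adult list headers also carry a vehicle of short duration that the labels do not mention. RNA came from other mice: 2 libraries of repopulating Ki67-positive microglia of the Ki67-rfp reporter strain (PLX5622 from day 55 for 17 days, 3 days of recovery, 75 days old), and 2 of wild-type adults of 90 days. Per the labels, microglia were sorted on CD11b, CD45 and CD44 and isolated on ice with butyrate and flavopiridol, inhibitors of histone deacetylases and of transcription elongation.

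H3K27ac is laid down by the acetyltransferases CBP and p300 on nucleosomes beside active promoters and enhancers, and it is read as a mark of regulatory elements in use. Microglia, the resident macrophages of the brain, depend on signalling through the receptor CSF1R, and PLX5622 is a CSF1R inhibitor that depletes most of them. After the drug is withdrawn, surviving microglia divide and refill the brain. Ki67 is a nuclear protein of cycling cells, so here it chose the cells, and signal at its own gene is a check of the labels.

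The 4 H3K27ac libraries had 16736099 to 22888521 tags. The authors called 30129 and 27008 regions in the repopulating libraries and 19572 and 24903 in the adult ones, which held 49.86% and 60.32% against 32.6% and 58.31% of each library's tags. The 2 adult libraries differed from each other: the second principal component of log2 signal (21.8% of the variance) set them at 39 and -45.6, with the repopulating libraries between them at 2.1 and 4.5. The median absolute difference between replicates was 0.40 on the log2 scale in adults and 0.18 in repopulating cells. The difference between the adult libraries touches each result below. Counts over all regions or genes that move by over 1.5 times without 1 of the 4 libraries are given beside the result or in the closing section. For the gene lists, median differences of such fits are given. The names in the list headers carry a 6-digit code, here only a name. Adult replicate 2 and repopulating replicate 1 share 1 code, and the other libraries have a code each. The RNA libraries had 7137499 to 8807640 counts. Their column names carry a code of letters, again only a name and not the code of the list headers. Adult replicate 2 and repopulating replicate 2 share 1 such code, and the other RNA libraries of these groups have a code each.

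More regions were present in repopulating microglia alone than in adult microglia alone. A region was called gained when both repopulating lists and neither adult list held it, which was so of 3655 union regions (10.7%). It was called lost in the opposite case, which was so of 369 (1.08%). All 4 lists held 16572 regions (48.3%), and the other 13699 (39.9%) were mixed. With 2 libraries against 2 the smallest two-sided permutation p is 0.33, so presence is a description. Presence also moves with how much the caller kept: the header of each list shows that filtering against the surrounding 10000 bp removed 36.8% and 19.1% of candidate peaks in the repopulating libraries and 20.1% and 29.5% in the adult ones, so a missing call does not show that signal was absent. Without adult replicate 2 the gained regions came to 7079 and the lost to 781, and without adult replicate 1 to 4003 and 1884. They came to 5746 and 1169 without repopulating replicate 1, and to 7266 and 615 without repopulating replicate 2. Within the shared header code alone, which leaves 1 library a group, they came to 7762 and 2574.

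Gained and lost regions were weaker than shared ones and lay mostly away from gene starts. The signal of a region is the sum of the authors' normalized tag counts over the called parts in it, in tags per 10000000 tags of the library. Median signal was 41.3 in gained regions (mean of both repopulating libraries), 40.2 in lost regions (mean of both adult libraries), and 214.3 and 158.8 in shared regions in the repopulating and adult libraries. The gained regions summed to 199636 and 233557 in the repopulating libraries over 4.15 and 3.67 Mb, which was 4.00% and 3.87% of all listed signal at 48.1 and 63.7 per kb. The lost regions summed to 12238 and 28146 in the adult libraries over 0.26 and 0.39 Mb, or 0.38% and 0.48%. The shared regions held 86.12% and 88.43% of listed signal in repopulating and 97.68% and 92.85% in adult libraries. Of the gained regions 555 (15.2%) lay within 1000 bp of a gene start, called promoter regions here, as did 18 of the lost (4.88%) and 45.1% of the shared. Median width was 1235 bp for gained, 1096 bp for lost and 2309 bp for shared regions. Distances are to the starts in the count table, and whether a region lies in an exon or an intron was not analysed here.

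The strongest gained regions included 5 promoters. The promoter of Rab7b, a small GTPase of endosomal and lysosomal traffic, had signals of 731.4 and 887.3 in the repopulating libraries (chr1:131688324-131692413, mm10) and no call in the adult ones. RNA levels are in CPM, counts scaled to the library's total adjusted by the TMM factor of edgeR. RNA of Rab7b was at 2.08 and 2.93 CPM in adults and 49.6 and 66.3 in repopulating cells. This was a log2 fold change of 4.53 ± 0.50 (SE, edgeR quasi-likelihood, adjusted p = 8.46e-06). Both repopulating RNA libraries were above both adult ones. The same order in H3K27ac was set by the choice of a gained region.

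The promoter of Ch25h, which encodes the enzyme that makes 25-hydroxycholesterol, had signals of 442.2 and 662.9 (chr19:34471699-34475985). Ch25h RNA was at 1.73 and 1.71 CPM in adults against 22.4 and 33.2, a log2 fold change of 4.00. The promoter of Pdlim7, a PDZ and LIM domain protein of the actin cytoskeleton, had 475.0 and 519.3, with RNA at 0.347 and 0.122 CPM against 13.6 and 22.2. The adult values of Pdlim7 rest on 3 and 1 counts. The promoter of Cyp4f18, a cytochrome P450 that oxidises leukotriene B4, had 368.1 and 472.9, and its RNA rose by 5.69 on the log2 scale, from 1.5 and 1.47 CPM to 65.8 and 89.2. The promoter of the histone gene Hist1h3g had 588.5 and 606.2. Histone genes of the cluster mostly lack polyA tails, and this gene was not tested in the polyA-selected RNA.

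The other 5 of the 10 strongest gained regions were distal. The one nearest Alcam, a cell adhesion molecule, lay 14.9 kb from its start with signals of 356.7 and 580.7, and Alcam RNA rose by 4.26 on the log2 scale. Those nearest Cxxc5 (303.5 and 585.3), Slc38a2 (328.0 and 497.0), Foxs1 (348.9 and 422.7) and Cdk6 (322.1 and 446.4), which encodes a G1 cyclin-dependent kinase, lay 4.35 to 41.9 kb from their starts. Their nearest genes did not rise at the RNA level: Cxxc5 fell by 0.38, Slc38a2 had a log2 fold change of -0.02, Cdk6 of 0.22 (adjusted p = 0.0734), and Foxs1 was not tested. The nearest gene need not be the gene a distal region acts on.

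The 10 strongest lost regions were all distal. The strongest lay 36.9 kb from Hs1bp3, with 379.7 and 776.0 in the adult libraries (chr12:8350321-8352382), and Hs1bp3 RNA fell by 0.37 on the log2 scale. The region 1.93 kb from the start of Ninj1, which encodes a membrane protein of plasma membrane rupture, had 283.5 and 506.7, and Ninj1 RNA fell from 67 and 63.4 CPM to 22.5 and 24.3 (log2 fold change -1.48 ± 0.12, adjusted p = 6.03e-07). RNA went the other way at Copz2 (216.3 and 522.4, log2 fold change 1.06) and Sh2d4b (97.4 and 384.7, log2 fold change 3.58). In each of the 10 lost regions adult replicate 2 was above adult replicate 1.

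**Figure D1:**
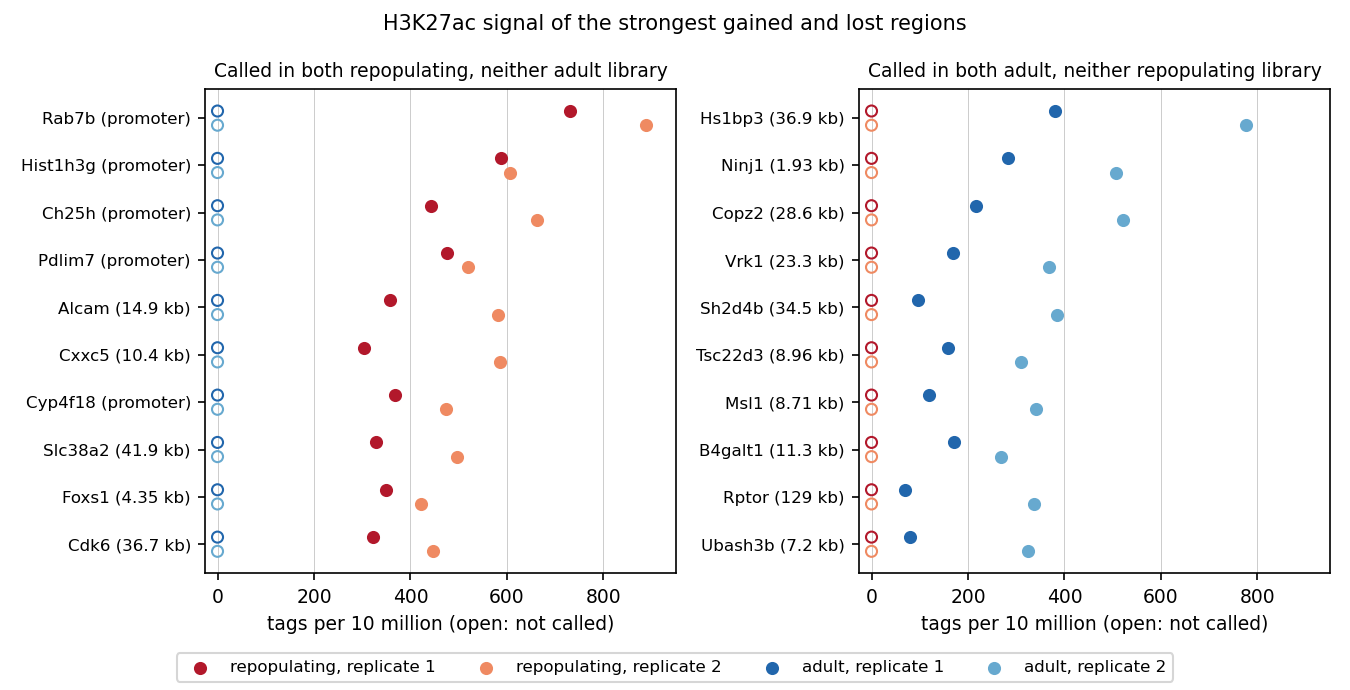
H3K27ac signal (x axis, tags per 10000000 tags) of the 10 gained and 10 lost regions with the highest mean signal, 1 point per library, named by the nearest gene with the distance to its start. Open circles at 0 are libraries without a call, and the gained Rab7b promoter is highest at 731.4 and 887.3.

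Among the 16572 shared regions, signal differed in both directions, and the balance depended on how libraries were scaled. With each library centred on its median region, limma on log2 signal called 1404 regions higher in repopulating microglia (8.47%) and 2344 lower (14.1%) at an adjusted p under 0.05. Before centring, the repopulating libraries were higher by a median of 0.391 on the log2 scale (-0.11 after it), and on that scale 1061 regions were called higher and 86 lower, so lower here means lower relative to the median region. The difference also moved with signal strength. With the regions split by signal into 10 bins of equal size, the median log2 difference was 0.25 in bin 1, the weakest, 0.47 in bin 2 and -0.59 in bin 10, where 11 of 1658 regions were called higher and 812 lower. With libraries set to each other along a smooth curve over signal (loess), 997 regions were called higher and 992 lower. Of the 1404 higher regions 559 (39.8%) were also called under all 4 other scalings tried (no centring, signal per kb, loess, and edgeR on tag counts), as were 80 of the 2344 lower regions (3.41%). Without repopulating replicate 1 or 2, 24.0% and 22.4% of the higher calls and 27.1% and 27.6% of the lower calls passed. Without adult replicate 1 or 2, 97.9% and 100% of the higher and 99.7% and 99.0% of the lower calls passed. In such a fit the spread comes from the group that keeps both libraries, the more variable adults in the first case and the repopulating cells in the other. In the 2 libraries of the shared header code alone the median log2 difference was 1.37 over the higher and -0.98 over the lower regions, though these libraries also entered the calls.

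**Figure D2:**
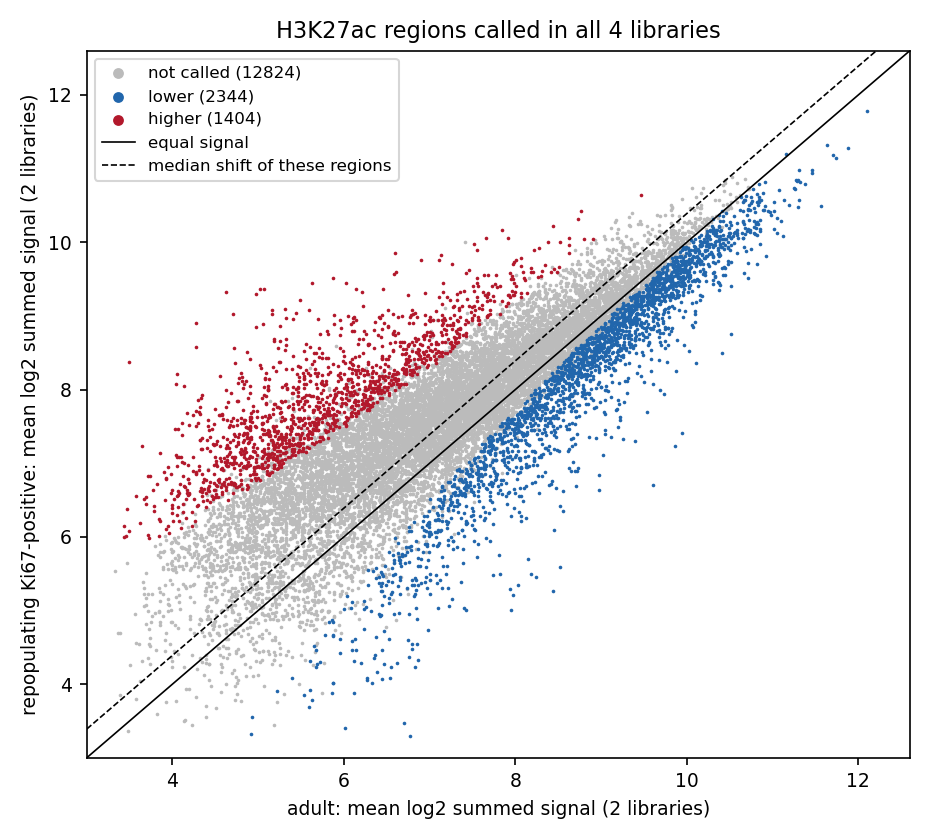
Mean log2 summed H3K27ac signal of each of the 16572 shared regions in the 2 adult (x axis) and 2 repopulating libraries (y axis), coloured by the limma call after centring. The median adult signal is 55.6 for the 1404 higher and 512.3 for the 2344 lower regions, and most of the cloud lies above the line of equal signal.

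The higher regions were promoters more often than the lower ones. Of the higher regions 612 (43.6%) were promoter regions, against 652 of the lower (27.8%). Median width was 2398 bp for the higher regions and 2914 bp for the lower. Of the 7465 promoter regions tested, 8.20% were higher and 8.69% lower. Of the 9094 distal regions tested, 8.71% were higher and 18.6% lower.

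The largest rises were mostly distal regions that were strong in repopulating cells and barely called in adults. The 10 largest were also called under all 4 other scalings. The region with the largest difference, nearest Chmp6 at a distance of 105 kb, had 289.2 and 385.6 against 13.1 and 9.62, a log2 difference of 4.39 ± 0.48 (SE, limma adjusted p = 0.00188). A region 104 kb from Gas7, a cytoskeletal protein of the growth-arrest-specific family, had 551.5 and 740.5 against 14.0 and 44.0 (4.19 ± 0.35). A region 28 kb from Ccl2, the chemokine that draws monocytes, had 589.1 and 739.5 against 14.4 and 78.0 (3.80 ± 0.47). A region 15 kb from Clic4, an intracellular chloride channel family member, had 237.8 and 368.4 against 17.0 and 16.2 (3.66 ± 0.42), and Clic4 RNA rose by 1.92. RNA of the gene nearest to these 10 regions was higher for Gas7, Phldb1, Hs3st3b1, Pcyox1l, Ccl2 and Clic4, was lower for Shq1 (-0.86), and did not pass for Chmp6 (0.04). Bmper and Fam50b were not tested.

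The 10 largest falls were distal too, and were called under all 4 other scalings. The region nearest Cd164, a sialomucin, had 37.0 and 39.5 in repopulating cells and 243.8 and 495.1 in adults, a log2 difference of -3.68 ± 0.31 (limma adjusted p = 0.000962). A region 14 kb from Ctsd, the lysosomal protease cathepsin D, had 86.0 and 125.9 against 482.3 and 1256.9 (-3.40 ± 0.26). Regions near Pde2a (12.5 and 9.76 against 50.7 and 212.1) and Mthfs (38.8 and 59.5 against 268.7 and 502.2) had log2 differences of -3.73 and -3.44, with the RNA of both genes lower too (-1.66 and -1.68). Tmem204 had a region at 92.0 and 14.9 against 156.0 and 403.9 and an RNA log2 fold change of -3.17. Ctsd RNA did not move with its region: it was at 1094 and 1129 CPM in adults and 1064 and 1163 in repopulating cells.

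A single changed region was more common than 3 or more at a gene. Of the genes with no region lost or lower, 2211 had 1 region gained or higher and 265 had 3 or more. Of those with none gained or higher, 930 had 1 lost or lower and 121 had 3 or more. The genes named next had among the most. Gas7 had 9 regions gained or higher and none lost or lower, as did Fam50b and Runx3, a transcription factor of the RUNX family whose RNA rose by 3.26 on the log2 scale. Gas7 RNA went from 3.24 and 2.44 CPM to 19.0 and 21.1 (2.81 ± 0.21). Ch25h had 6 such regions, over the gene and up to 71.4 kb from it. Bcl6, Eea1, Myc and Tprg had 8 each, and RNA of Bcl6 (-0.19), Eea1 (-0.20) and Myc (-0.20) did not pass, so a count of regions went without a rise in RNA there. At Ccl2 the 2 strong distal regions were higher (3.80 and 3.29), whereas the promoter, at 188.8 and 269.4 against 78.2 and 94.2, was not called (0.89 ± 0.31, adjusted p = 0.0687). Ccl2 RNA rose from 3.47 and 4.89 CPM to 9.13 and 17.7. At Cd9, a tetraspanin, the promoter (1180.7 and 1367.6 against 288.3 and 629.2, log2 difference 1.08) and a region 10 kb away (982.9 and 1160.9 against 161.7 and 252.1, 1.90) were higher, both under all 4 other scalings. Another Cd9 region was gained (335.8 and 397.2), and Cd9 RNA rose by 0.32.

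Abca1 showed the opposite. It encodes the transporter that loads cellular cholesterol onto apolipoproteins and is a target of the oxysterol-sensing LXR receptors. All 7 Abca1 regions called in all 4 libraries were lower, 4 of them under all 4 other scalings. The promoter had 145.8 and 185.3 in repopulating cells and 460.5 and 659.1 in adults (chr4:53158034-53160197, log2 difference -2.25 ± 0.23). A region 37 kb from the start had 160.1 and 142.6 against 781.6 and 1102.0 (-3.12 ± 0.25). Abca1 RNA fell from 935 and 913 CPM to 375 and 256 (-1.55 ± 0.16, edgeR adjusted p = 6.26e-06). Of the genes with lost or lower regions and none gained or higher, Irf2 had 7 and its RNA fell by 0.43. Inpp5d, a phosphatase of immune receptor signalling, had 6 with RNA at a log2 fold change of 0.04. Sall1, a transcription factor of microglial identity, had 5 such regions, 119 to 359 kb from its start, and its RNA fell by 0.30. The Sall1 promoter (-0.42) and all tested regions within 119 kb of the start were not called.

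**Figure D3:**
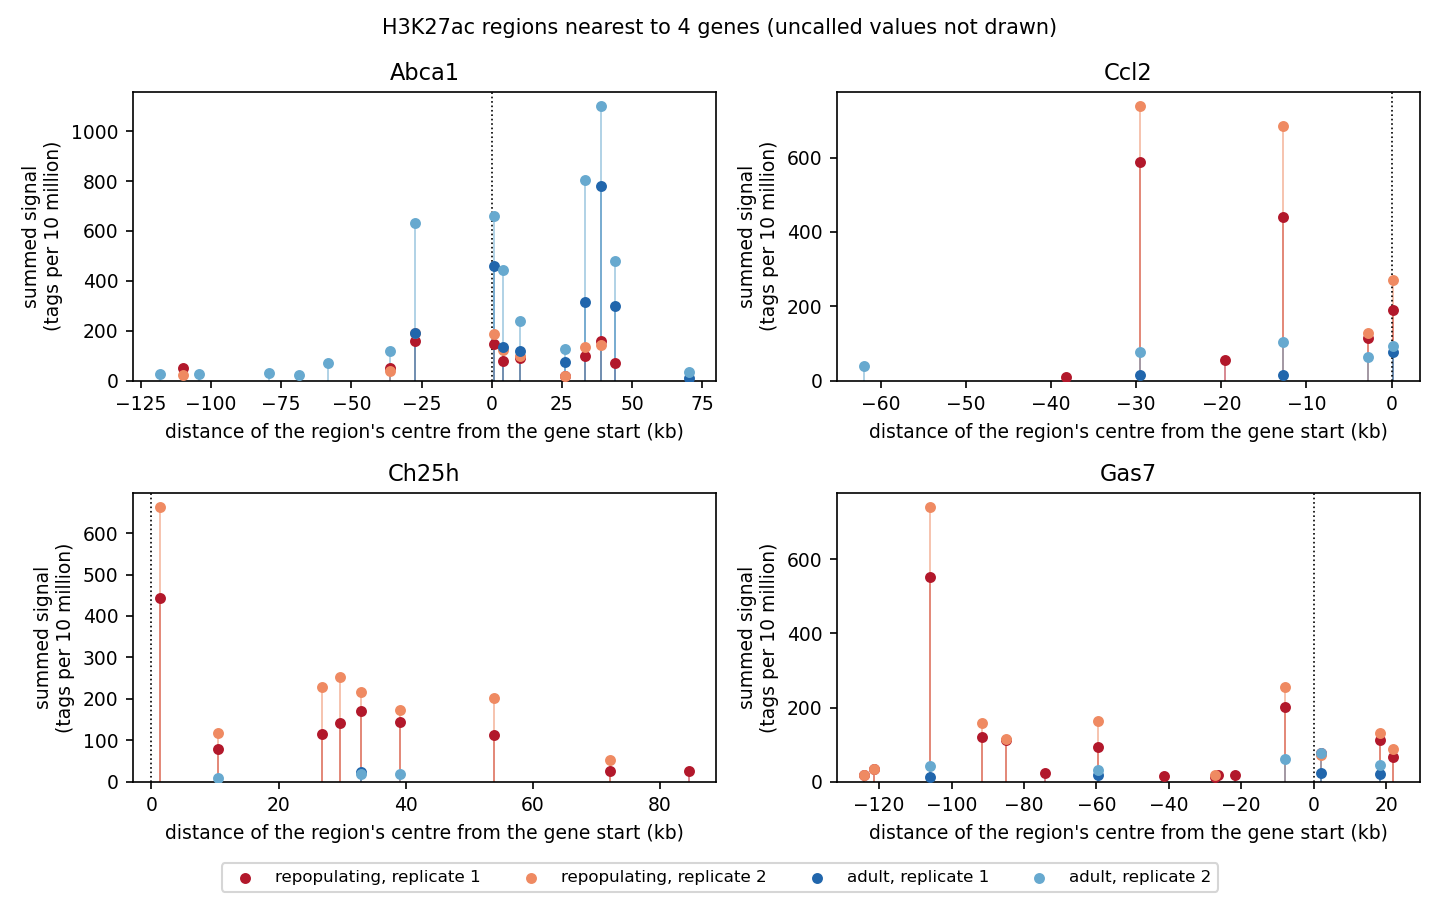
Summed H3K27ac signal (y axis, tags per 10000000 tags) of every union region nearest to Abca1, Ccl2, Ch25h and Gas7 against the distance of its centre from the gene start (x axis, kb), 1 point per library and only where the library had a call. Adult points stand above repopulating ones over most of Abca1 (460.5 and 659.1 at the promoter), and repopulating points stand above adult ones at the strong regions of the other genes.

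After median centring, the 2 cell cycle lists had the highest median promoter difference of the 9 gene lists examined. The label check came first: the Mki67 promoter had 246.8 and 307.5 in the repopulating libraries and no adult call, and Mki67 RNA was at 13.4 and 11 CPM in adults and 930 and 1086 in repopulating cells. Of the 40 genes of G2 and M phase, which build the spindle and drive mitosis, 14 had a gained promoter and 9 of the 16 promoters present in all lists were higher, with none lost or lower. For comparison, 584 of the 10826 genes with any promoter region had a gained one. The median log2 difference over the 16 was 0.98, against -0.02 over all promoters tested. It was positive under every scaling, from 0.10 per kb to 1.48 without centring. Of the 9 higher calls 2 (Anln and Smc4) were made under all 4 other scalings. Most of the 9 were not made without repopulating replicate 1 or 2. The median was 0.97 and 0.90 without repopulating replicate 1 or 2, and 1.36 and 0.70 without adult replicate 1 or 2. Over all promoters tested the median in these fits was -0.05 and 0.01, and 0.07 and -0.17. RNA of all 40 genes rose (median log2 fold change 5.61), beside 2918 genes higher (23.9%) and 2571 lower (21.0%) of the 12230 tested with edgeR.

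The promoter of Cdk1, the kinase of mitotic entry, was gained with 320.3 and 342.8, and its RNA went from 3.70 and 4.15 CPM to 89.2 and 115. The promoter of Ccnb1, its cyclin B1 partner, was gained with 96.2 and 91.0, and Ccnb1 RNA went from 0.462 and 0.122 CPM to 56.1 and 75.8. The promoter of Anln, a scaffold of the cleavage furrow, had 271.3 and 301.0 against 21.4 and 35.4 (2.88 ± 0.33). That of Smc4, a condensin subunit, had 327.4 and 339.1 against 40.6 and 111.9 (1.80 ± 0.32), and those of Aurka and Cenpe were higher by 1.52 and 1.5. The promoter of Top2a, the DNA topoisomerase of mitosis, was mixed, at 141.6 and 175.1 against no call and 16.7, although its RNA rose by 6.03.

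Of the 36 S phase genes, which license and copy DNA, 11 promoters were gained, 8 of the 17 present in all lists were higher and 1 was lower. Their median difference was 0.85, and 0.45 to 1.35 under the other scalings. RNA of 34 of the 36 rose. The promoter of Uhrf1, which keeps DNA methylation through replication, was gained with 305.9 and 387.9, and that of Rrm2, the small subunit of ribonucleotide reductase, with 262.9 and 306.1. The promoter of Mcm5, of the replicative helicase, had 141.0 and 165.8 against 31.0 and 23.8 (1.99 ± 0.46), and its partner Mcm6 was gained with 109.3 and 170.5. Rpa2 (1.95), Mcm4 (1.78) and Rfc2 (1.58) were higher as well. Of the 8 higher calls 2, Mcm4 among them, were made under all 4 other scalings. Rpa2 (0.63) and Rfc2 (0.08) were not called per kb, nor Mcm5 (1.62) with loess. The Pcna promoter differed by -0.07, with RNA up by 1.00. Only Cdt1, the licensing factor, was lower (851.5 and 1254.2 against 910.9 and 1444.7, -0.65), though 0.01 with loess, while its RNA rose by 1.42. No promoter of the S phase list was called in the fits without a repopulating library. The median of the list was 1.00 and 0.88 without adult replicate 1 or 2, against 0.07 and -0.17 over all promoters tested.

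Short motifs were sought in the promoters of these 2 lists. As examples 5 are shown, 4 of the gained promoters and, for Mcm5, the one with the largest difference among the tested S phase promoters. Sequences are the 250 bases before the start in RefSeq (GRCm38.p6, mm10), 5' to 3' on the gene's strand: Mki67 (chr7:135716380-135716629, minus strand), Cdk1 (chr10:69352913-69353162, minus strand), Ccnb1 (chr13:100786487-100786736, minus strand), Mcm5 (chr8:75109259-75109508, plus strand) and Mcm6 (chr1:128359706-128359955, minus strand). Capitals mark 3 motifs searched on both strands: TTTGAA (the cell cycle homology region, CHR, bound by the DREAM and MuvB complexes), CCAAT (the box of NF-Y), and TTTGGCGC or TTTCCCGC (E2F).
Mki67: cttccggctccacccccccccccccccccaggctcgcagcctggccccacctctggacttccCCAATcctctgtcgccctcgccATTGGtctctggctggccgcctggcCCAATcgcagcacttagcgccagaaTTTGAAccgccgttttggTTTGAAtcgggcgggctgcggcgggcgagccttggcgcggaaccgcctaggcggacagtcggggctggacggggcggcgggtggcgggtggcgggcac
Cdk1: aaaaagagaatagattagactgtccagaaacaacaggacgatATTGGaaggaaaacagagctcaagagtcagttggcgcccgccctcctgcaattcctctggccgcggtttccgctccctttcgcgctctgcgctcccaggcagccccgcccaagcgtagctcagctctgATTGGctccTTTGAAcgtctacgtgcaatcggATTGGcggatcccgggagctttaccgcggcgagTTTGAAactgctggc
Ccnb1: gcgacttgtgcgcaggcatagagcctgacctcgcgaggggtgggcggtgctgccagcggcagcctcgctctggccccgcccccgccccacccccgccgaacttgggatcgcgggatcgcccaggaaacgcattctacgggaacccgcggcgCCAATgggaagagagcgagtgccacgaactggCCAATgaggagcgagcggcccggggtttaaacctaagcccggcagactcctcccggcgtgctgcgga
Mcm5: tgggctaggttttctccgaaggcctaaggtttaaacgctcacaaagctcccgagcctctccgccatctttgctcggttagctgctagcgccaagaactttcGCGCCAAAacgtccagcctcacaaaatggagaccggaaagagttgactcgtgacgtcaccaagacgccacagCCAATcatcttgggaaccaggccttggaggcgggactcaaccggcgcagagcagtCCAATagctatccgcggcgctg
Mcm6: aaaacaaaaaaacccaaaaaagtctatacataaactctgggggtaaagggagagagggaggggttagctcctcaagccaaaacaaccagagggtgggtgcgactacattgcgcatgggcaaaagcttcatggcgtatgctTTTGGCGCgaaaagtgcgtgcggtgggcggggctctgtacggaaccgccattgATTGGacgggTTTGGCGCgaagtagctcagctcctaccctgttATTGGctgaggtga
Mki67 and Cdk1 hold 2 CHR matches and 3 CCAAT matches each, Ccnb1 holds 2 CCAAT matches, and Mcm5 and Mcm6 hold 1 and 2 E2F matches and 2 CCAAT matches each. In the RefSeq windows from 250 bases before to 50 after the start, CHR letters stood in 25 of 34 G2/M promoters with a sequence (73.5%), against 11.3% of the 8543 promoters with an H3K27ac region. CCAAT stood in 79.4% of the G2/M and 73.1% of the S phase promoters, against 39.2%. E2F letters stood in 9 of 26 S phase promoters (34.6%), against 3.43%. CHR letters stood in 15.4% of the S phase and E2F letters in 2.94% of the G2/M promoters. Among gained or higher G2/M promoters 12 of 19 held CHR, beside 25 of 34 over the list, and 16 of 19 held CCAAT, beside 27 of 34. Among gained or higher S phase promoters 6 of 15 held E2F, beside 9 of 26, and 13 of 15 held CCAAT, beside 19 of 26. CHR letters stood in 18% of gained and 17.5% of higher promoters, and in 9.79% of those present in all lists and not called. A match is a run of letters, and binding was not measured.

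Interferon response genes rose in RNA without a matching call at most promoters. RNA of all 34 rose (median log2 fold change 2.42, summed CPM 1180 and 1200 in adults, 3730 and 4010 in repopulating cells). In H3K27ac, 7 promoters were gained, 2 of 15 tested were higher and none was lower, and the median difference was 0.21. The median was 0.32 without adult replicate 1 and -0.10 without adult replicate 2, against 0.07 and -0.17 over all promoters tested. With missing calls set to the lowest signal, 7 of 32 were higher and the median was 1.08. In the fits without a repopulating library none was called. The gained promoters were weak. Ifit1, an RNA-binding antiviral protein, had 35.3 and 27.4 and an RNA log2 fold change of 2.71. Rsad2, the antiviral enzyme viperin, had 22.1 and 22.3 and 3.76. Oasl2 had 38.8 and 63.6, Cmpk2 16.7 and 17.2, Oas1a 26.9 and 14.9, Ifi27l2a 95.0 and 96.2, and the chemokine gene Cxcl10 167.3 and 135.6. Eif2ak2, the kinase PKR, was higher (130.9 and 143.1 against 14.9 and 41.5, 1.96 ± 0.42), as was Dhx58 (0.88). Irf7 was mixed, at 134.4 and 151.4 against no call and 48.1.

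Ifit1 (chr19:34640639-34640888, plus strand) and Rsad2 (chr12:26456453-26456702, minus strand) are shown as gained interferon promoters, 250 bases before the start as above. Capitals mark GAAANNGAA, the core of the interferon-stimulated response element (ISRE), on either strand.
Ifit1: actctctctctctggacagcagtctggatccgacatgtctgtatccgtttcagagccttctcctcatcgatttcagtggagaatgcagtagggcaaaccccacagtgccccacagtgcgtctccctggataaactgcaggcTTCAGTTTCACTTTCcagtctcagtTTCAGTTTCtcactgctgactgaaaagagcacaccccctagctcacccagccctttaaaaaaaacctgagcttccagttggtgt
Rsad2: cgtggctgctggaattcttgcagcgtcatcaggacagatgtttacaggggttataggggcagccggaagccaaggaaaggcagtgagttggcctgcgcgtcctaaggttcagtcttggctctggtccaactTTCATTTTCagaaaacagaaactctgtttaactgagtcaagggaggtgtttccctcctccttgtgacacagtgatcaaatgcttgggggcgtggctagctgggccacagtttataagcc
Ifit1 holds 3 matches, the first and the next overlapping, and Rsad2 holds 1. In the windows up to 50 bases after the start, these letters stood in 16 of 23 interferon promoters with a sequence (69.6%), against 7.28% of promoters with an H3K27ac region. Among the gained or higher interferon promoters 5 of 7 held them. The letters stood in 9.35% of all gained promoters.

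Promoters of homeostatic microglial genes stayed called in all 4 libraries. All 28 had a promoter region, and 8 were lower, 1 higher and none gained or lost. These counts depended on single libraries, as did the median. The median difference was -0.58 and -0.03 without adult replicate 1 or 2, against 0.07 and -0.17 over all promoters tested. Without repopulating replicate 1 or 2 it was -0.30 and -0.28, against -0.05 and 0.01, with fewer lower calls. With all 4 libraries the median difference was -0.29, but 0.21 without centring and 0.28 with loess. None of the 8 lower calls was made under either of those scalings. The promoter of P2ry12, a purinergic receptor of microglial processes, had 1788.3 and 2267.4 against 2533.1 and 3117.7 (-0.98 ± 0.18), with RNA at 966 and 963 CPM against 787 and 805 (-0.28, adjusted p = 0.0691). Fcrls (-1.18), Gpr34 (-1.11) and P2ry13 (-1.09) were lower and their RNA fell by 1.18, 0.38 and 0.50. Sparc was higher (0.74). The promoter of Csf1r, the target of PLX5622, had 1521.3 and 1670.9 against 1140.3 and 2163.0 (-0.48, adjusted p = 0.0543), and Csf1r RNA differed by 0.00. The Tmem119 promoter had 886.1 and 1205.5 against 36.7 and 786.1, so that 1 adult library set its difference of 2.10 (adjusted p = 0.105). Of the 28 genes, 14 fell and 1 rose in RNA.

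Of the 20 microglial transcription factors, 17 had a promoter called in all 4 libraries. Bhlhe40 was gained, and Nr1h3 and Tfec were mixed. Of the 17 tested, Mef2a (-1.30 ± 0.20) and Spi1, the gene of PU.1 (-0.91 ± 0.20), were lower and Maf was higher (0.81 ± 0.22), and the median of -0.17 was 0.33 without centring and 0.25 with loess. The median was -0.32 and -0.02 without adult replicate 1 or 2, against 0.07 and -0.17 over all promoters tested. Without repopulating replicate 1 or 2 the median was -0.11 and -0.18, against -0.05 and 0.01. The counts of lower and higher promoters also moved without single libraries. The Bhlhe40 promoter was gained, at 338.2 and 337.7, with 4 further gained regions nearest to it and RNA at 2.89 and 3.05 against 3.58 and 7.19 CPM (adjusted p = 0.20). Sall1 had 739.1 and 762.3 against 401.5 and 1252.3 (-0.42). RNA of 11 of the 20 genes fell, Maf among them (-0.73).

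Genes of disease-associated microglia, a state of lipid-handling and phagocytic cells, split. Of 24 genes 5 promoters were gained. They were Ch25h, Lpl (lipoprotein lipase, 337.0 and 378.6), Axl (a receptor for dying cells, 291.6 and 231.3), Clec7a (the receptor Dectin-1, 214.5 and 290.8) and Lilrb4a (95.6 and 104.1). RNA rose for Ch25h, for Lpl by 1.61 and for Axl by 3.45, whereas Clec7a RNA fell by 1.92 and Lilrb4a was at -0.32. Of 11 promoters tested, Itgax (1.35) and Cd9 (1.08) were higher under all 4 other scalings. Cd63 (77.7 and 92.9 against 137.6 and 280.9, -1.71), Tyrobp (-1.05), Ctsl, Cd68 and Ctsd were lower, and none of these 5 was called without centring. Fewer promoters were called without repopulating replicate 1 or 2. The median was -0.70, and 0.60 where missing calls were set to the lowest signal. Without repopulating replicate 1 or 2 it was -0.57 and -0.80, against -0.05 and 0.01 over all promoters tested. Without adult replicate 1 or 2 it was -0.44 and -0.65, against 0.07 and -0.17. Tyrobp RNA rose by 0.35. No Apoe region lay within 1000 bp of its start in these lists, and Apoe RNA fell from 149 and 173 CPM to 52.0 and 66.9.

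Immediate early and heat shock genes, which respond within minutes to stimulation and handling, were lower on balance. Of 22 promoters tested 9 were lower, none higher, gained or lost, with a median of -0.67 that stayed below 0 under each scaling (-0.17 without centring, -0.16 with loess). Atf3 (-1.30), Fosb (-1.20) and Zfp36, which destabilises cytokine mRNA (2344.8 and 2626.9 against 3459.8 and 4129.7, -1.11), were among them. Of the 9 lower calls 1, Atf3, was made with loess and none without centring. The median was -0.70 and -0.89 without adult replicate 1 or 2, against 0.07 and -0.17 over all promoters tested. Without repopulating replicate 1 or 2 the median was -0.77 and -0.62, against -0.05 and 0.01, with fewer lower calls. RNA fell for 13 of 23 genes, and summed CPM was 2520 and 2690 in adults and 1690 and 1720 in repopulating cells. Genes of this list also move with cell handling, and its part in the result was not tested.

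NF-kB and cytokine promoters were lower at 5 of 16 (Tnfaip2, Rel, Il1b, Nfkb2 and Il10ra) and higher at Tnf (736.1 and 803.2 against 212.8 and 394.3, 0.91 ± 0.20), and their median of -0.41 was 0.09 without centring. The median was -0.31 and -0.58 without adult replicate 1 or 2, against 0.07 and -0.17 over all promoters tested. Without repopulating replicate 1 or 2 the median was -0.46 and -0.42, against -0.05 and 0.01, with fewer lower calls. Tnf RNA rose by 0.90. Of 12 antigen presentation promoters tested, B2m and Cd74 were lower, both by 0.87 in size, and the median of -0.43 was 0.07 without centring. The antigen presentation median was -0.30 and -0.62 without adult replicate 1 or 2, against 0.07 and -0.17 over all promoters tested. Neither B2m nor Cd74 was called in the fits without a repopulating library. The class II promoters of H2-Aa (38.2 and 31.1) and H2-Ab1 (124.9 and 144.5) were gained, although RNA of H2-Aa fell by 4.04 and of Cd74, the class II invariant chain, by 1.48.

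**Figure D4:**
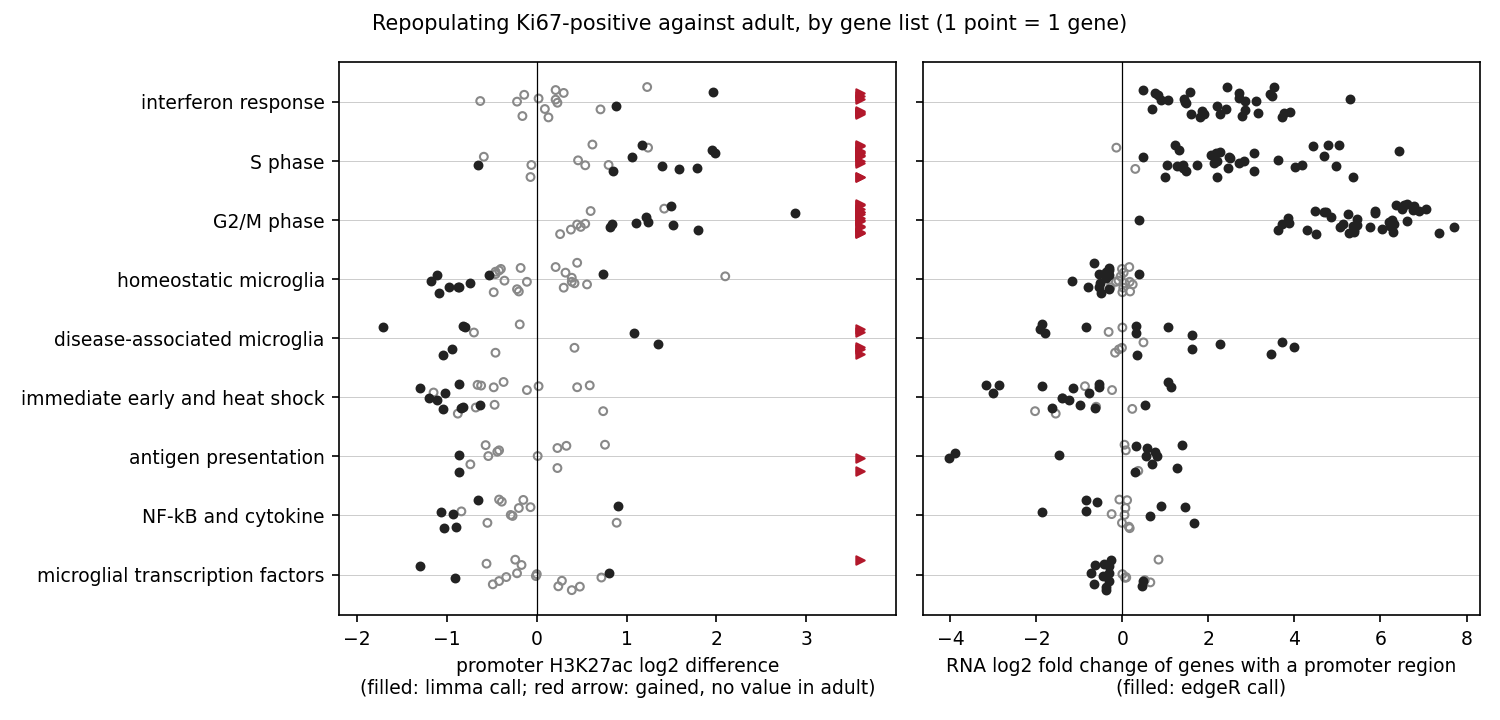
Promoter H3K27ac log2 difference (left, tested promoters) and RNA log2 fold change (right) of the genes in each of the 9 lists, repopulating against adult, 1 point per gene with a promoter region. Filled points passed the limma or edgeR test and red arrows are gained promoters; the S and G2/M lists hold 11 and 14 arrows and the homeostatic list none.

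Markers of other cell types were nearly absent from the promoter regions, but not from the distal ones. Distal regions nearest to them came to 24 for endothelium, 18 for monocytes or neutrophils, 16 for astrocytes and 15 for border macrophages. The oligodendrocyte lineage had 12, erythroid cells 6, lymphocytes 4 and neurons 2. None of 8 neuron, 11 monocyte or neutrophil and 8 lymphocyte markers had a promoter region in the 4 lists. Astrocytes had 1 of 8 (Slc1a3, mixed), the oligodendrocyte lineage 2 of 8 (Mbp and Mog, mixed), erythroid cells 1 of 7 (Klf1, not called), endothelium 2 of 8 and border macrophages 3 of 8. The endothelial gene Pecam1 was lost, at 42.4 and 115.9 in adults, with RNA down by 1.70. The border macrophage gene Stab1 was lower (-0.80). Its list summed to 1400 and 1510 CPM in adults and 827 and 773 in repopulating cells, nearly all of it Stab1 (1337 and 1428 against 784 and 737). The astrocyte list summed to 240 and 248 CPM in adults and to 410 and 421 in repopulating cells, nearly all of it Slc1a3 (233 and 243 against 398 and 411). Monocyte and neutrophil markers summed to 236 and 73.3 CPM in adults and 23.4 and 20.1 in repopulating cells. In bulk libraries fewer cells of a type and less signal per cell cannot be told apart, and the part of other cells in the results was not tested. All 10 microglial markers had a promoter region in all 4 lists.

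RNA moved with promoter H3K27ac for a part of the genes. Genes with a gained promoter were higher in 50.0% and lower in 9.81% of 540 cases, and genes with a higher promoter in 50.4% and 9.20% of 696. Genes with a lower promoter were higher in 11.7% and lower in 38.6% of 694 cases, and 8 of 15 genes with a lost promoter were lower. Across 8291 genes with a tested promoter, the 2 log2 differences had a Pearson r of 0.32 and a Spearman rho of 0.25. Genes are not replicates, and the RNA mice differed from the H3K27ac mice in age and, for the repopulating group, in the reporter allele.

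**Figure D5:**
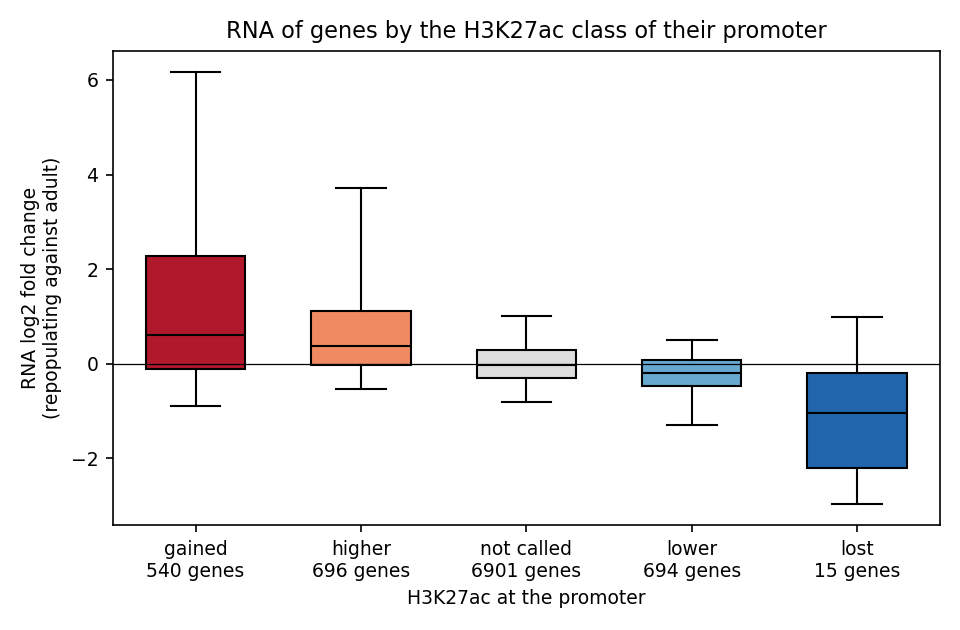
RNA log2 fold change (y axis, repopulating against adult) of genes grouped by the H3K27ac class of their promoter; boxes give the quartiles, lines the median and whiskers the 5th and 95th percentile. The medians are 0.60 for gained, 0.38 for higher, -0.02 for not called, -0.19 for lower and -1.04 for lost promoters.

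Genes nearest to distal gained regions were close to the background of all genes tested. Of them 28% were higher and 21.5% lower in RNA, beside 23.9% and 21.0% of all genes and 49.7% and 9.83% for promoter gained regions. Of genes nearest to a distal higher region 34.5% were higher and 19.4% lower, against 51.9% and 8.51% for promoter higher regions. For lower regions the distal and promoter shares were alike, with 40.3% and 40.5% of genes lower. Of genes nearest to a distal lost region 13.3% were higher and 42.5% lower. Genes with 3 or more regions gained or higher and none lost or lower were higher in 42.6% of 237 cases, and those with 3 or more regions lost or lower and none gained or higher were lower in 56.8% of 118. Most genes with an RNA change had no promoter call in the same direction. Of 2622 genes higher in RNA with a promoter region, 621 had it gained or higher. Of 2241 lower in RNA, 276 had it lower or lost. For comparison, of all 12230 genes tested in RNA, 540 had a gained, 696 a higher, 694 a lower and 15 a lost promoter region. Of the rest, 6901 had one that was not called, 1793 had none, and the others had a mixed one, which was not tested. In 64 genes the promoter was higher and RNA lower, Maf among them, and in 81 the promoter was lower and RNA higher, Tyrobp and Cdt1 among them.

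Open chromatin was present in adults at most gained regions, though at a smaller share than over the whole union. ATAC-seq, which maps accessible DNA, had 1 list for adult microglia (80 days old) and 1 for repopulating Ki67-positive microglia (75 days old, PLX5622 from day 55). The title of the repopulating sample names the Ki67-rfp reporter, whereas its genotype label is wild-type. Of the gained regions 71.9% overlapped an adult ATAC peak and 88.7% a repopulating one, and 18.5% only the latter. Of the lost regions 79.1% and 70.7% did, and 11.9% overlapped only an adult peak. Of the shared regions 98.8% and 98.9% did. Of all union regions 83.8% overlapped an adult and 87.9% a repopulating peak, 6.18% only a repopulating one and 2.13% only an adult one. The promoter mark H3K4me3 in both adult libraries covered 23.9% of gained, 10.6% of lost and 60.0% of shared regions, beside 40.2% of the union. Rpb2, a subunit of RNA polymerase II, was called in both adult libraries in 0.711% of gained, 3.52% of lost, 19.7% of higher and 55.6% of lower regions. Over the union its share was 21.1%, and over the shared regions, which include the higher and lower ones, 41.9%. H3K4me3 and Rpb2 of repopulating cells were not analysed here. The adult Rpb2 mice had the same ages as the adult H3K27ac mice, 60 and 65 days, and the first Rpb2 library shared an input with the first adult H3K27ac library.

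Most gained regions were also called in other H3K27ac groups of the study, as were most union regions. Of the 3655, 88.4% were called in at least 1 of the 8 libraries of postnatal day 8 and of cuprizone-fed mice, cuprizone being a toxin that strips myelin, beside 92.1% of all union regions. The share per library was 39.0% to 59.5% at day 8 and 29.0% to 70.5% after 4 weeks of cuprizone. Of all union regions each library held more, 72.2% to 79.2% at day 8 and 66.4% to 81.0% after cuprizone. None of the 8 held 425 gained regions (11.6%), beside 7.86% of the union. Same-numbered Ki67-positive and Ki67-negative libraries shared a header code, and the positive library held the larger share of gained regions in each of the 4 pairs. At day 8 these shares were 45.4% against 39.0% and 59.5% against 47.7%, and after cuprizone 46.0% against 29.0% and 70.5% against 61.3%. Over the union the same pairs held 72.2% against 72.5%, 79.2% against 76.1%, 68.4% against 66.4% and 80.5% against 81.0%. The difference within pairs was not tested. The Rab7b region was called in all 8 libraries and the Cyp4f18 region in 6. Of the lost regions 95.9% were called in at least 1 of the 8, and 15 in none.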

How the data were processed

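H3K27ac, H3K4me3, Rpb2, ATAC and RNA libraries of mouse microglia were grouped by the labels alone. Per the file headers, the authors called H3K27ac regions per library against its input with HOMER findPeaks on mm10 (stitched regions of variable length, peak size 500 bp, false discovery rate 0.001, at least 4 times the input), and the normalized tag count is a signal per 10000000 tags. The fold over input, a deposited ratio, entered 1 alternative; its column was identified by its values, because header names and values are out of order. RNA counts and TPM were made by the authors over exons with at most 3 tags per position, per the file headers. The submitters' processing notes name HOMER 4.11, STAR 2.7.0f, Bowtie2 2.3.4.1 and DESeq2.

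Here the 4 lists were merged where they overlapped, signal was summed per region, and regions were assigned to the nearest start of the count table. Shared regions were tested with limma 3.58.1 (eBayes with trend) on median-centred log2 signal, and RNA counts with edgeR 4.0.16 (quasi-likelihood, TMM) in 1 fit of all 10 RNA libraries, with Benjamini-Hochberg adjustment. TPM and DESeq2 1.42.0 served as alternatives. Both fits were also run on simulated data with the same spread in both groups. Such data cannot show how the fits behave with the unequal spread of the H3K27ac libraries. The labels call the RNA libraries independent biological replicates; for H3K27ac they do not say so, and p-values then measure only the spread between these libraries, which may be technical.

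Members, gene lists and tests were chosen with earlier results of these data known. Named regions were the 10 strongest gained and lost, the 10 largest rises and falls, a panel of 12 genes (1 of which is not reported here), and up to 4 promoters per list with the largest difference plus those gained or lost. Abca1, Cd9, Gas7, Cdt1 and other genes named beyond these were chosen after their values were seen. Motifs were sought in RefSeq promoters (15982 of 20999 genes matched), not in ATAC peaks as planned, because no genome was given.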

Additional observations from a re-analysis of the deposited data

How the results depend on the processing

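The calls on shared regions depended most on scaling and on single libraries. Higher regions came to 2336 with all 12 libraries in the fit, 2444 with missing calls at the lowest signal and 308 in regions at least 8 times the input. Lower regions came to 1194 at a 2-fold minimum, 86 without centring, 1558 above the lowest 25% of signal, 304 at 8 times the input and 992 with loess (added after the data were seen). Leaving out 1 library gave 321 to 3577 higher and 703 to 5074 lower regions, with the lowest counts without a repopulating library and the highest without an adult one. Gained regions came to 770 at 8 times the input, 381 above the median peak, 7762 within 1 header code and 4003 to 7266 without 1 library. Lost regions came to 40 above the median peak, 2574 within 1 header code and 615 to 1884 without 1 library. At 8 times the input the mean summed signal was 2737163 (main 4814069) for shared, 147698 (main 216596) for gained and 41169 (main 20192) for lost regions; without 1 library, gained regions summed to 245507 to 539898 and lost regions to 21773 to 78077. RNA calls came to 1226 higher and 601 lower at a 2-fold minimum, and to 1504 to 2101 lower without 1 library, lowest without repopulating replicate 2. Genes nearest to gained regions were higher in RNA in 31.2%, in 49.7% at promoters only, 29.0% by DESeq2, 39.9% at 8 times the input and 27.9% to 30.5% without 1 library. Genes nearest to lost regions were lower in 42.9%, in 52.9% at promoters only and 37.1% to 42.0% without 1 library. Replicate numbers did not pair the samples (correlation of same-numbered deviations -0.0143 for H3K27ac, 0.0219 for RNA); with the replicate number as a block, 1870 higher and 2930 lower regions and 3126 higher and 2895 lower genes were called. Among named promoters with a call in the main or the loess fit, Ccl12 (0.58), Cst3 (0.09), Jun (0.06), Cdt1 (0.01), Junb (0.23) and Il10ra (0.02) changed sign with loess. With a call in either fit, Fen1 (0.49), Olfml3 (-0.46) and Selplg (-0.57) changed sign without adult replicate 1. Without adult replicate 2 these 3 were at -0.73, 0.93 and 1.1. Promoters called in neither fit changed sign too, such as Csf1r (-0.48, and 0.30 with loess). The cause was not tested. Of 2638 alternative values of all results, 2203 kept their direction and side of the threshold (or, with no test, moved by less than the replicate spread), 226 no longer passed, 139 newly passed, 61 moved and 9 changed sign.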
